A study of Mus musculus with 12 samples.

Results

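The type I interferon-stimulated genes are the genes that cells switch on when type I interferon reaches them. They were taken here as a list of 43 gene symbols. Of these, 41 were measured by a probe set that carries that gene's symbol alone, out of 18193 genes so measured. Where a gene had several such probe sets (19 of the 41 did), the one with the highest mean over the 12 arrays stood for it. Isg15 and Ifi44 were not analysed here.

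The cells were lymph node suspensions of P14-TCR mice, whose transgenic T cell receptor recognises the viral peptide gp33-41. PKD2-null mice and wild-type mice were compared, 3 of each. PKD2 (protein kinase D2, gene Prkd2) is a serine kinase that is switched on downstream of the T cell receptor. Cells of each mouse were cultured for 4 h with 62.5 ng/ml of the peptide or for 4 h without it. This gave 4 groups of 3 Affymetrix arrays: PKD2-null with peptide, wild type with peptide, PKD2-null without peptide and wild type without peptide. Both genotypes carried the P14 receptor. The suspensions were not described as sorted, so every cell type of the node could contribute RNA. In such bulk samples, fewer cells of a type and less RNA per cell cannot be told apart. The labels used here give no age or sex of the mice and do not name the deleted stretch of the null allele.

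Type I interferons (interferon beta and the interferon alphas) bind the receptor pair Ifnar1 and Ifnar2, whose kinases Tyk2 and Jak1 switch on the factor ISGF3. ISGF3, which holds Stat2 and Irf9, binds the interferon-stimulated response element (ISRE) in promoters. Interferon gamma, made by activated T cells, acts mainly through a different element, the gamma-activated site (GAS), and many genes answer to both kinds of interferon. In lymphocytes many interferon-stimulated genes are also expressed at rest.

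Promoter sequence was searched for the core letters of the ISRE. RefSeq promoter windows of build GRCm38.p6, from 250 bases before to 50 after the start of a gene, were found for 30 of the 41 members. The ISRE core, which is GAAA, any 2 bases and GAAA again, was read on both strands and occurred in 11 of these 30 (36.7%), against 3.99% of 27025 genes with such a window. The 11 were Stat2, Rigi, Ifih1, Ifit1, Ifit3, Oas3, Rsad2, Eif2ak2, Bst2, Trim30a and Trim21. The GAS letters TTCNNNGAA, which read the same on both strands, occurred in 5 of the 30 (16.7%), against 9.55% of the 27025 genes. The stretches below hold the core in 4 members whose levels are described further on and, as a 30-base piece, in a member that fell. They are written on the strand of the gene, and capitals mark each match to the ISRE core, so that a match on the other strand appears with its letters complemented and reversed. The Ifit1 stretch lies at chr19:34640729-34640888 (plus strand), Ifit3 at chr19:34583369-34583528 (plus), Bst2 at chr8:71537473-71537632 (minus), Rsad2 at chr12:26456453-26456612 (minus) and Rigi at chr4:40239804-40239833 (minus).
Ifit1: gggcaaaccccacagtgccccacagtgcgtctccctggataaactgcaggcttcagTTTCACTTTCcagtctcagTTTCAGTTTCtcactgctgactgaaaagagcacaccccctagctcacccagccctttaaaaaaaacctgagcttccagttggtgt
Ifit3: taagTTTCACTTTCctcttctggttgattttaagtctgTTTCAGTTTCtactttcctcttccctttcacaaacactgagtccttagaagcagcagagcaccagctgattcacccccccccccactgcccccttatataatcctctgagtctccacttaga
Bst2: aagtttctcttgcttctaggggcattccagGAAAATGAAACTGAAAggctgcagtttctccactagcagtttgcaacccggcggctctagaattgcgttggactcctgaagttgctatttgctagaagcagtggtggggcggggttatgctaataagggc
Rsad2: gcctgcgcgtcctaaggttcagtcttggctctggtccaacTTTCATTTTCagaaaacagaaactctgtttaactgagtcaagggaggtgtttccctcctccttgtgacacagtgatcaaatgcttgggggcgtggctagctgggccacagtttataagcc
Rigi: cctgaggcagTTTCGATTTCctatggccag

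Ifit1 and Ifit3 each held the core at 2 separate places, and Bst2 held 2 overlapping copies. A match describes letters and was not tested as a binding site. Of the members described below that rose in wild-type cells, 9 had a window and 4 of these held the core. Of those that fell, 5 had a window and 1 held it.

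The arrays gave log2 signals with medians of 4.661 to 4.72, and arrays of a group correlated at 0.991 or more. The log2 difference of Prkd2, null minus wild type, was -2.85 with peptide (adjusted p = 2.5e-06) and -4.17 without it (adjusted p = 2.7e-08), in the direction the labels give. T cell markers were present on every array, with a mean over 7 genes between 10.40 and 11.16. B cell markers were present too and stood higher in null than in wild-type mice. Their mean over 13 of 15 listed genes was 8.65 to 9.38 in stimulated null and 8.18 to 8.35 in stimulated wild-type cells, and 9.25 to 10.00 in unstimulated null and 8.82 to 8.91 in unstimulated wild-type cells. Null mouse 2 stood apart from the other two, with the highest means of B cell, plasma cell, macrophage, neutrophil and NK cell markers of the null mice in both conditions and the lowest T cell mean. Its T cell mean was 10.59 with peptide, against 11.10 and 11.16 in the other two, and 10.40 without it, against 10.59 and 10.73. The counts and the median difference between stimulated null and wild-type cells are therefore also given without it.

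**Figure D1:**
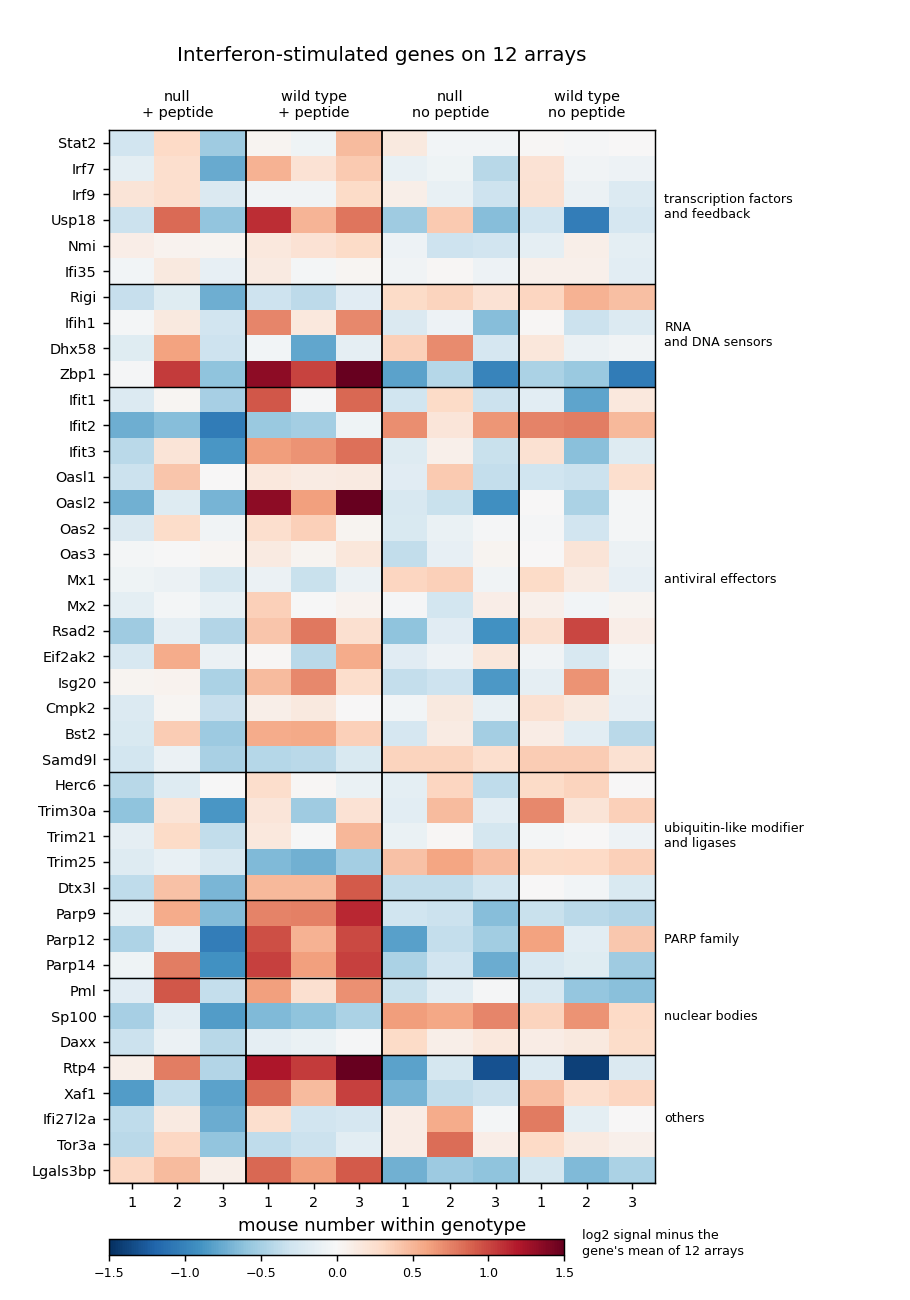
Log2 signal of the 41 members on the 12 arrays, each gene minus its own mean over the arrays, with the colour scale ending at 1.5 in either direction. Columns are mice 1 to 3 of each group and rows are grouped by role. Stimulated wild-type columns are red for Zbp1, Oasl2, Rtp4, Parp9, Parp14 and Lgals3bp, and the stimulated columns of both genotypes are blue or near white for Ifit2, Sp100 and Rigi, whose unstimulated columns are red.

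In wild-type cells the peptide split the group. Of the 41 members, 14 rose and 5 fell, and 22 did not pass the test (limma, adjusted p under 0.05). Over all genes 15.1% rose and 20.4% fell, so the share that rose was higher among the members (34.1%) and the share that fell lower (12.2%). The members also had higher signals than most genes. Their median level over the 12 arrays was 7.39, against 5.62 over all genes, and 34 of the 41 lay above the latter. Whether signal level accounts for the gap in shares was not tested. The median change of the members was 0.25 (log2), against 0.01 over all genes. In 20 members all 3 wild-type mice had a higher value with peptide, and in 11 all 3 had a lower one, against 28.9% and 30.5% of all genes. All 3 stimulated values lay above all 3 unstimulated ones in 15 members and below them in 7, against 21.5% and 25.2% of all genes. With each mouse as its own control (mouse as a block), 17 members rose and 8 fell, against 16.3% and 22% of all genes. The members that passed only with the block were Isg20, Parp12 and Xaf1, which were higher, and Trim30a, Ifi27l2a and Tor3a, which were lower. The count of rising members leaned on single mice. Without wild-type mouse 3 it was 5 of 41 (12.2%), against 12.9% of all genes, so the higher share among the members was lost. It was 8 of 41 without mouse 1 and 10 of 41 without mouse 2, against 12.7% and 12.8% of all genes, and there the members' share stayed higher. Zbp1, Oasl2, Parp9, Rtp4 and Lgals3bp passed whichever wild-type mouse was left out. The falling members numbered 5 without any 1 of these mice, against 18%, 16.8% and 16.4% of all genes.

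In PKD2-null cells 2 of the 41 members rose (4.88%) and 6 fell (14.6%), against 12.5% and 19% of all genes. The median change was 0.02, against -0.02 over all genes. In 9 members all 3 null mice had a higher value with peptide, and in 12 all 3 had a lower one, against 25.4% and 33.7% of all genes. The stimulated values lay fully above the unstimulated ones in 2 members and fully below in 7, against 17.4% and 24.1% of all genes. Lgals3bp and Nmi rose in both genotypes, and Ifit2, Sp100, Rigi, Trim25 and Samd9l fell in both. Daxx, a chaperone of histones in nuclear bodies, fell by 0.46 (SE 0.0996, adjusted p = 0.00371) in null cells, and in wild-type cells its change of -0.27 did not pass. With the mouse as a block, 5 members rose in null cells and 10 fell, against 13.4% and 21.4% of all genes. Those added were Isg20, Rtp4 and Zbp1 among the rises, and Ifi27l2a, Mx1, Tor3a and Trim30a among the falls.

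Among the sensors of foreign nucleic acid, Zbp1, a sensor of Z-form nucleic acid that can start cell death, had the largest rise of all members in wild-type cells. Its log2 signals in null cells were 7.53, 8.60 and 6.95 with peptide and 6.75, 7.12 and 6.56 without it, and in wild-type cells 8.89, 8.56 and 9.07 with peptide and 7.07, 6.99 and 6.50 without it. All 3 stimulated wild-type arrays stood more than a log2 unit above every unstimulated one, whereas in null cells the array of mouse 2 reached the wild-type level and that of mouse 3 overlapped the unstimulated range. The change was 1.99 in wild-type cells (3.96-fold, SE 0.328, adjusted p = 0.000396) and 0.88 in null cells (adjusted p = 0.0721), where it passed with the mouse as a block. Ifih1 (MDA5, a sensor of long double-stranded RNA) rose by 0.70 in wild-type cells (SE 0.185, adjusted p = 0.0109), and its 0.26 in null cells did not pass.

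Rigi (RIG-I, the sensor of RNA with a triphosphate end) went the other way from Ifih1. It had 7.97, 8.13 and 7.58 with peptide and 8.60, 8.65 and 8.53 without it in null cells, and 8.01, 7.92 and 8.14 with peptide and 8.64, 8.84 and 8.77 without it in wild-type cells. The stimulated and unstimulated ranges did not overlap in either genotype. Rigi fell by 0.70 in null cells (SE 0.125, adjusted p = 0.000989) and by 0.73 in wild-type cells (adjusted p = 0.000564). Dhx58 (LGP2, a regulator of the other RNA sensors) did not pass in either.

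The IFIT proteins, which bind viral RNA, did not move together. Ifit1 had 5.65, 5.89 and 5.36 with peptide and 5.56, 6.15 and 5.54 without it in null cells, and 6.79, 5.84 and 6.72 with peptide and 5.70, 5.07 and 6.02 without it in wild-type cells. Ifit3 had 6.37, 6.97 and 5.91 with peptide and 6.59, 6.85 and 6.44 without it in null cells, and 7.41, 7.45 and 7.60 with peptide and 7.01, 6.15 and 6.59 without it in wild-type cells. In wild-type cells the stimulated Ifit3 values all lay above the unstimulated ones, whereas 1 stimulated Ifit1 value (mouse 2) lay within the unstimulated range, and in null cells the ranges of both genes overlapped. Ifit3 rose by 0.90 in wild-type cells (SE 0.247, adjusted p = 0.0137) and Ifit1 by 0.86 (SE 0.285, adjusted p = 0.0393), and the null changes of -0.21 and -0.12 did not pass. Ifit3 has a near-identical neighbour, Ifit3b, whose transcripts the Ifit3 probe set may also bind, so its values are uncertain between them.

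Ifit2 had 6.66, 6.76 and 6.35 with peptide and 8.09, 7.58 and 8.06 without it in null cells, and 6.84, 6.88 and 7.33 with peptide and 8.14, 8.16 and 7.88 without it in wild-type cells. The groups with and without peptide were fully separate in both genotypes. Ifit2 fell by 1.32 in null cells (2.49-fold, SE 0.17, adjusted p = 7.37e-05) and by 1.04 in wild-type cells (2.06-fold, adjusted p = 0.00037).

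Of the OAS group, whose active members make the 2-5A messenger that switches on an RNA-degrading enzyme, the OAS-like gene Oasl2 rose in wild-type cells. It had 3.53, 4.06 and 3.55 with peptide and 4.01, 3.92 and 3.33 without it in null cells, and 5.59, 4.86 and 5.89 with peptide and 4.25, 3.78 and 4.22 without it in wild-type cells. Every stimulated wild-type value was above all others, and the null values with and without peptide overlapped. The change was 1.36 in wild-type cells (SE 0.259, adjusted p = 0.00117), and the -0.03 in null cells did not pass. Its means in stimulated null (3.71), unstimulated null (3.75) and unstimulated wild-type cells (4.08) lay under the highest array median (4.72), so the differences of Oasl2 are of measured signals and give no exact fold. Oasl1, Oas2 and Oas3 passed in neither genotype, with changes of 0.08 to 0.32 in wild-type cells.

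Of the other antiviral effectors, Bst2 (tetherin, which holds budding virus at the membrane) rose by 0.64 in wild-type cells (SE 0.219, adjusted p = 0.0436). Samd9l, a restriction factor of poxviruses, fell in both genotypes. It had 9.14, 9.32 and 8.93 with peptide and 9.75, 9.75 and 9.66 without it in null cells, and 8.99, 9.01 and 9.18 with peptide and 9.79, 9.79 and 9.64 without it in wild-type cells. All its stimulated values lay below all unstimulated ones, by 0.59 on average in null cells (adjusted p = 0.000838) and 0.68 in wild-type cells (adjusted p = 0.000208). Rsad2 (viperin, which makes a chain-ending nucleotide), Mx2, Eif2ak2 (PKR, which halts translation), Isg20 (an exonuclease), Cmpk2 and Mx1 did not pass in either genotype without the mouse as a block. With it, Isg20 was higher in both genotypes and Mx1 lower in null cells. Oas3 and Mx1 had group means of at most 4.37 and 4.05 and stayed under the highest array median in all 4 groups, which limits what can be read from them.

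Usp18, which strips Isg15 from proteins and dampens the interferon receptor, had 5.99, 7.17 and 5.72 with peptide and 5.79, 6.71 and 5.68 without it in null cells, and 7.42, 6.83 and 7.12 with peptide and 6.03, 5.28 and 6.07 without it in wild-type cells. In the null group mouse 2 was high in both conditions. Usp18 rose by 1.33 in wild-type cells (2.51-fold, SE 0.368, adjusted p = 0.0146), and its 0.23 in null cells did not pass. Stat2 and Irf9, subunits of ISGF3, and Irf7, the factor that drives interferon alpha genes, passed in neither genotype, with wild-type changes of 0.14, 0.08 and 0.34. Nmi, a partner of STAT proteins, rose by 0.28 in null and by 0.28 in wild-type cells (adjusted p = 0.041 and 0.0364).

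All 3 members of the PARP family, which attach ADP-ribose to proteins, had a positive wild-type change and 2 passed. Parp9 had 9.07, 9.74 and 8.53 with peptide and 8.88, 8.86 and 8.54 without it in null cells, and 9.92, 9.94 and 10.31 with peptide and 8.84, 8.77 and 8.74 without it in wild-type cells. Parp14 had 8.93, 9.77 and 8.09 with peptide and 8.52, 8.71 and 8.26 without it in null cells, and 10.02, 9.61 and 10.03 with peptide and 8.76, 8.82 and 8.47 without it in wild-type cells. For both genes the null array of mouse 2 lay within or near the stimulated wild-type range and that of mouse 3 within or below the unstimulated range. Parp9 rose by 1.27 (SE 0.232, adjusted p = 0.000873) and Parp14 by 1.21 (SE 0.313, adjusted p = 0.0099) in wild-type cells, and their null changes of 0.35 and 0.44 did not pass. Dtx3l, the ubiquitin ligase that pairs with Parp9, rose by 0.72 in wild-type cells (SE 0.224, adjusted p = 0.0281) and its 0.13 in null cells did not pass.

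The ubiquitin ligase Trim25, which acts on RIG-I, fell in both genotypes. It had 10.23, 10.31 and 10.19 with peptide and 10.87, 11.02 and 10.89 without it in null cells, and 9.76, 9.71 and 9.92 with peptide and 10.71, 10.73 and 10.78 without it in wild-type cells. The 4 groups did not overlap at all: stimulated wild-type values were lowest, then stimulated null, unstimulated wild-type and unstimulated null values. Trim25 fell by 0.68 in null cells (SE 0.0821, adjusted p = 4.2e-05) and by 0.94 in wild-type cells (adjusted p = 1.85e-06). Herc6, Trim30a and Trim21 (an antibody receptor inside the cell) passed in neither, except that Trim30a was lower in both with the mouse as a block.

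The nuclear body genes also parted. Pml, which builds these bodies, had 7.21, 8.32 and 7.03 with peptide and 7.05, 7.23 and 7.37 without it in null cells, and 8.00, 7.63 and 8.07 with peptide and 7.14, 6.80 and 6.76 without it in wild-type cells. Sp100, another scaffold of the bodies, had 7.55, 7.89 and 7.21 with peptide and 8.68, 8.63 and 8.78 without it in null cells, and 7.39, 7.45 and 7.58 with peptide and 8.38, 8.72 and 8.35 without it in wild-type cells. Pml overlapped between conditions in null cells and not in wild-type cells, and Sp100 overlapped in neither. Pml rose by 1.00 in wild-type cells (SE 0.267, adjusted p = 0.0119), and its 0.30 in null cells did not pass. Sp100 fell by 1.14 in null cells (SE 0.153, adjusted p = 0.0001) and by 1.01 in wild-type cells (adjusted p = 0.000202).

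Rtp4, a chaperone of membrane receptors, had 8.36, 9.04 and 7.83 with peptide and 7.47, 8.01 and 6.96 without it in null cells, and 9.48, 9.32 and 9.79 with peptide and 8.07, 6.87 and 8.05 without it in wild-type cells. Each null mouse was higher with peptide than without it, yet the 2 null ranges overlapped, since mouse 2 was high in both. Rtp4 rose by 1.87 in wild-type cells (3.64-fold, SE 0.364, adjusted p = 0.00145) and its null change of 0.93 (adjusted p = 0.0888) passed with the mouse as a block. Lgals3bp, a secreted galectin-binding protein, had 7.89, 8.05 and 7.67 with peptide and 6.86, 7.04 and 6.97 without it in null cells, and 8.44, 8.19 and 8.50 with peptide and 7.31, 6.92 and 7.11 without it in wild-type cells. It was separate between conditions in both genotypes and rose by 0.91 in null (SE 0.128, adjusted p = 0.000142) and by 1.27 in wild-type cells (adjusted p = 6.36e-06).

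**Figure D2:**
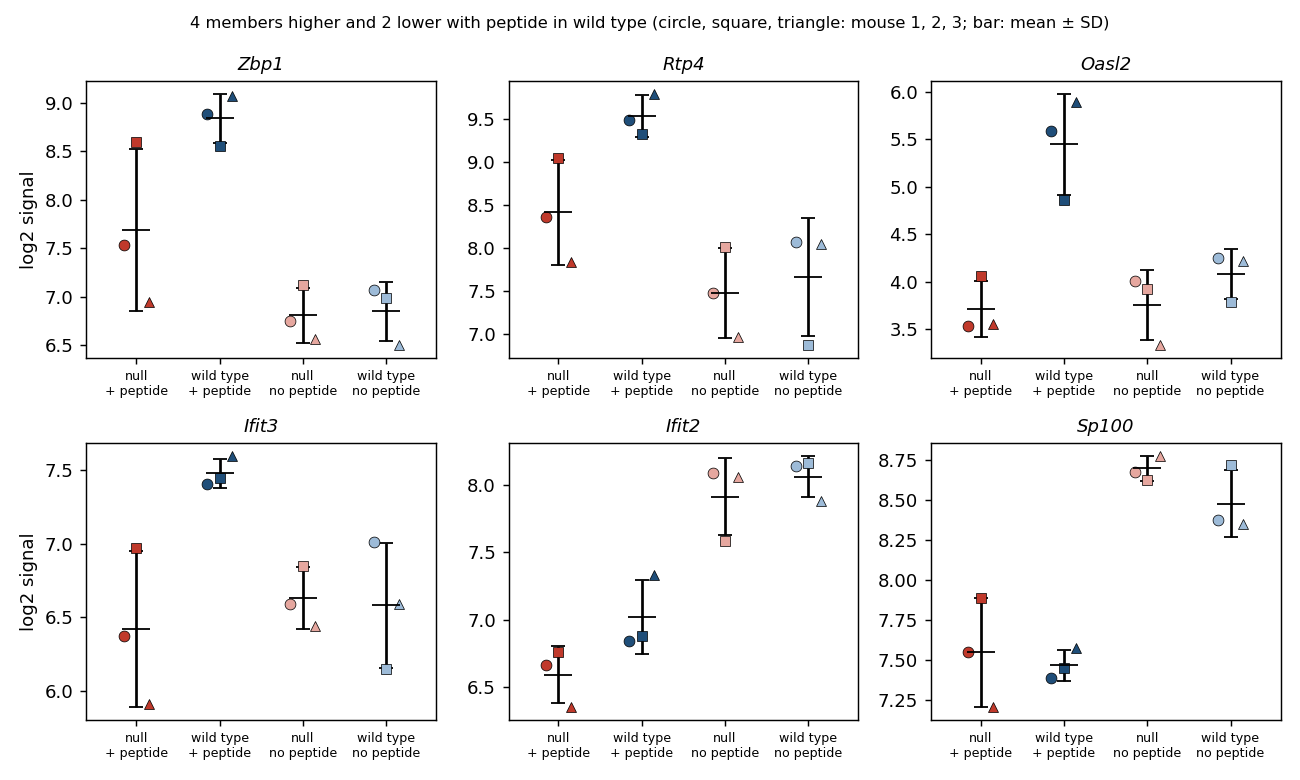
Log2 signal per array of 6 members in the 4 groups, with symbols for mice 1 to 3 and bars for the mean and SD (n = 3). For Oasl2 all stimulated wild-type points (4.86 to 5.89) lie above every other point, while Ifit2 is lower with peptide in both genotypes.

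Set side by side, the 14 members that rose in wild-type cells had a median change of 0.27 in null cells and 1.1 in wild-type cells, and 13 of the 14 had the smaller change in null cells. The 5 that fell in wild-type cells had a median change of -0.7 in null and -0.94 in wild-type cells. These sets were chosen by their wild-type change, so the gap is a description. The difference between the changes (null minus wild type) was tested for each gene, and 0 of the 41 members passed in limma, against 0% of all genes higher and 0.0055% lower. At an unadjusted p under 0.05 there were 7, against 7.71% of all genes, and 31 of the 41 differences were negative, with a median of -0.21 (-0.02 over all genes). Among the largest were Oasl2 at -1.40 (SE 0.366, adjusted p = 0.458, with 3 of its 4 group means under the highest array median), Ifit3 at -1.12 (adjusted p = 0.55), Zbp1 at -1.10 (adjusted p = 0.667) and Usp18 at -1.09 (adjusted p = 0.715). Ifit1 followed at -0.97 and Rtp4 at -0.94. A weaker response of these genes in null cells was therefore not shown by the test of the difference itself.

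**Figure D3:**
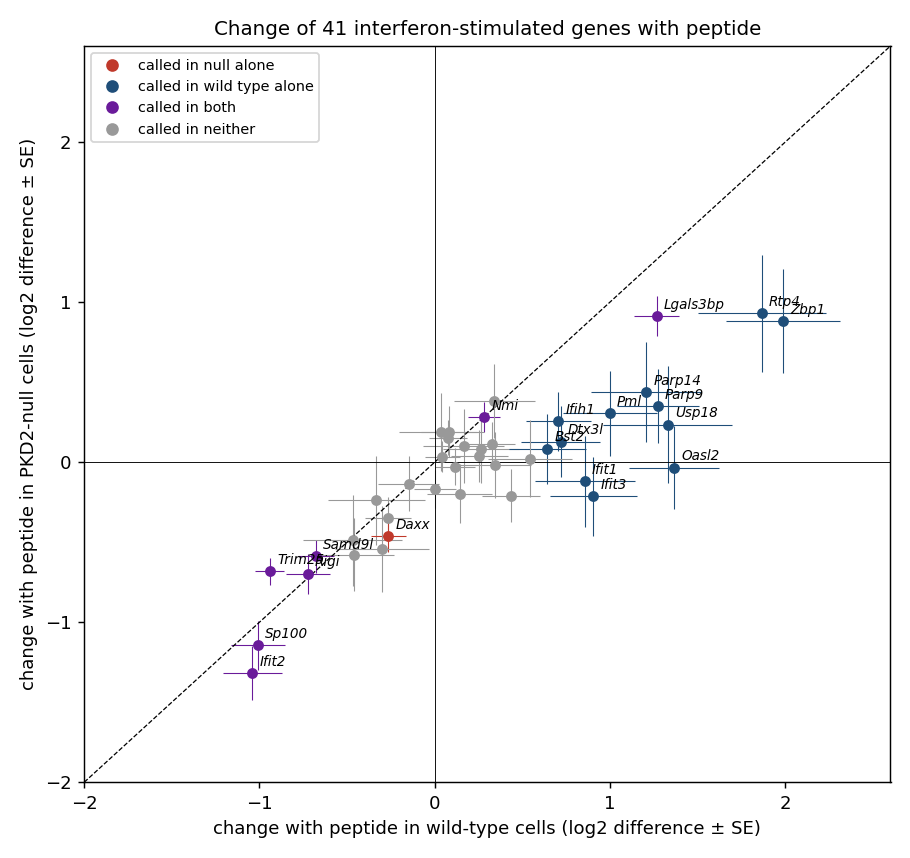
Change with peptide in wild-type cells (horizontal) and in PKD2-null cells (vertical) for the 41 members, as log2 differences with standard errors, and a dashed line of equal change. Members that fell lie near the line, and 13 of the 14 that rose in wild-type cells lie below it.

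With peptide, 3 members were lower in null than in wild-type cells and 1 was higher, against 0.544% and 1.09% of all genes. Of the 41 differences 33 were negative, with a median of -0.32 (-0.03 over all genes), and the p before adjustment was under 0.05 in 19, against 17.6% of all genes. Xaf1, an interferon-induced promoter of cell death, had 6.89, 7.38 and 6.93 in stimulated null and 8.57, 8.21 and 8.76 in stimulated wild-type cells. Its difference of -1.45 (2.73-fold, SE 0.163, adjusted p = 0.00237) passed whichever mouse was left out. Oasl2, with the values given above, had a difference of -1.73 (SE 0.259, adjusted p = 0.011), with the null side under the highest array median.

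Parp12, which acts on stress granules and Golgi proteins, had 5.24, 5.58 and 4.67 in stimulated null and 6.67, 6.23 and 6.70 in stimulated wild-type cells. The ranges were apart, and the difference was -1.37 (2.58-fold, SE 0.24, adjusted p = 0.0227). Trim25 was higher in null cells by 0.45 (1.36-fold, SE 0.0821, adjusted p = 0.0269). In 15 members all 3 stimulated null values lay below all 3 stimulated wild-type values, against 12.8% of all genes, and in 1 (Trim25) all lay above, against 10.9%. The 15 were Nmi, Ifih1, Ifit2, Ifit3, Oasl2, Oas3, Mx2, Rsad2, Isg20, Dtx3l, Parp9, Parp12, Rtp4, Xaf1 and Lgals3bp.

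**Figure D4:**
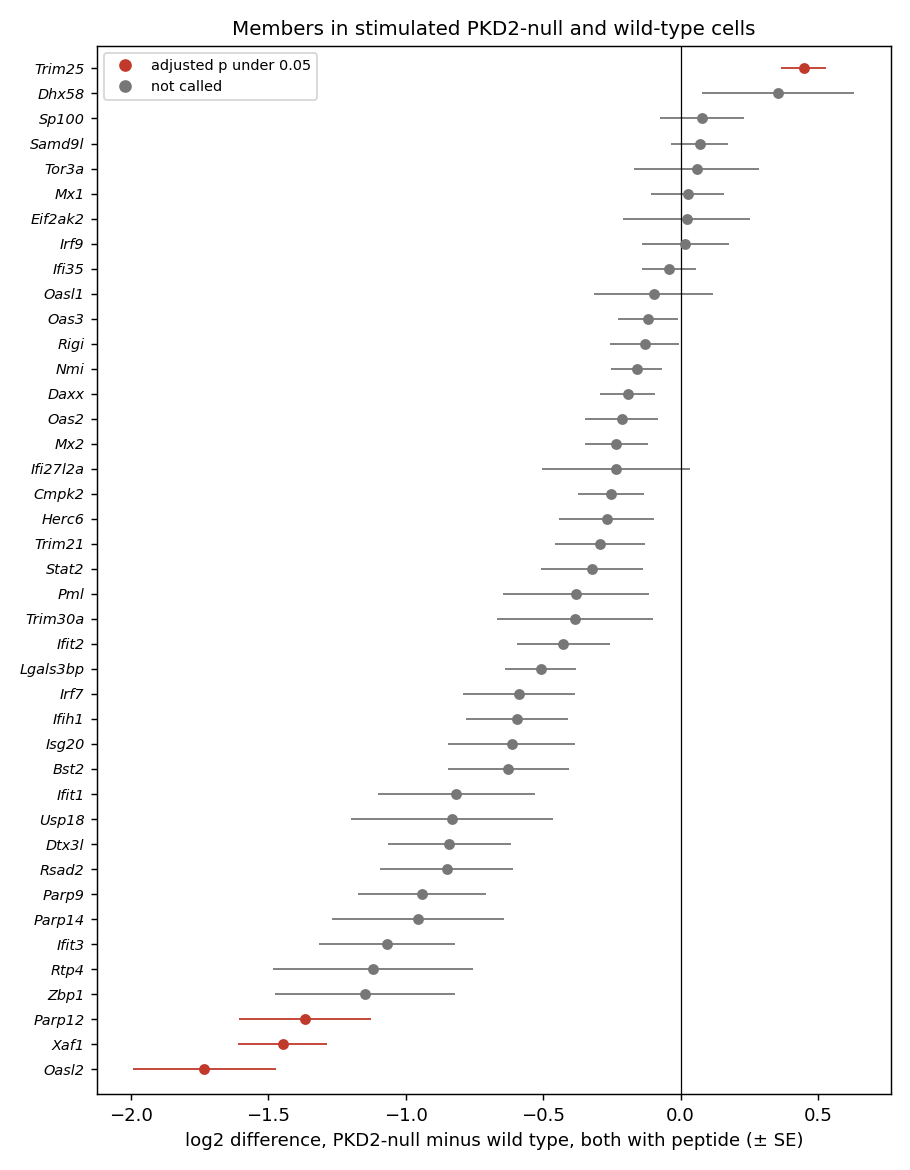
Difference between stimulated PKD2-null and stimulated wild-type cells for each of the 41 members (log2, null minus wild type, with standard errors), in red where the adjusted p was under 0.05. Trim25 stands at the positive end (0.45), and Parp12 (-1.37), Xaf1 (-1.45) and Oasl2 (-1.73) at the negative end.

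These counts depended on which mice were included, and the count of lower members changed most without null mouse 2. The stimulated array of null mouse 2 had the highest value of the 3 stimulated null arrays in 37 of the 41 members (90.2%), and in 37% of all genes. The mean over the 41 members was 7.08, 7.52 and 6.86 in stimulated null and 7.66, 7.45 and 7.72 in stimulated wild-type cells, so mouse 2 reached the wild-type range and the other two null mice did not. Without peptide the means were 7.18, 7.37 and 7.07 in null and 7.43, 7.26 and 7.27 in wild-type cells, with mouse 2 again highest of the null mice. Without null mouse 2, 12 members were lower in stimulated null than in stimulated wild-type cells and 1 was higher, against 1.18% and 1.92% of all genes, and the median was -0.51. The 9 added were Irf7, Usp18, Zbp1, Ifit3, Bst2, Dtx3l, Parp9, Parp14 and Pml. Without null mouse 1 the count of lower members was 1 (Xaf1) and of higher ones 0, against 0.0824% and 0.143% of all genes. Without wild-type mouse 3 the counts were again 1 (Xaf1) and 0, against 0.0715% and 0.319%. Without null mouse 3 there were 2 lower and 0 higher, against 0.0934% and 0.363%. Without wild-type mouse 1 there were 2 lower and 0 higher, against 0.506% and 0.511%, and without wild-type mouse 2 there were 3 lower and 0 higher, against 0.176% and 0.352%. Trim25 thus passed with all mice and without null mouse 2, and lost its call when any other mouse was left out.

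Ifng, the gene of interferon gamma, followed the same mice. It had 7.87, 9.53 and 7.04 in stimulated null and 10.26, 9.60 and 10.02 in stimulated wild-type cells. Null mouse 2 came just below the lowest wild-type mouse, and the difference of -1.81 did not pass (adjusted p = 0.1). The mean of 20 genes that interferon gamma is known to induce was 9.39, 10.04 and 8.97 in stimulated null and 10.07, 10.04 and 10.10 in stimulated wild-type cells. The B cell marker mean was 8.72, 9.38 and 8.65 in stimulated null and 8.18, 8.35 and 8.18 in stimulated wild-type cells. Of its 13 genes, 3 (Ighm, Fcrla and Cd79b, 23.1%) were higher in stimulated null cells, against 1.09% of all genes. The part of interferon gamma or of B cells in the members' levels was not tested.

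**Figure D5:**
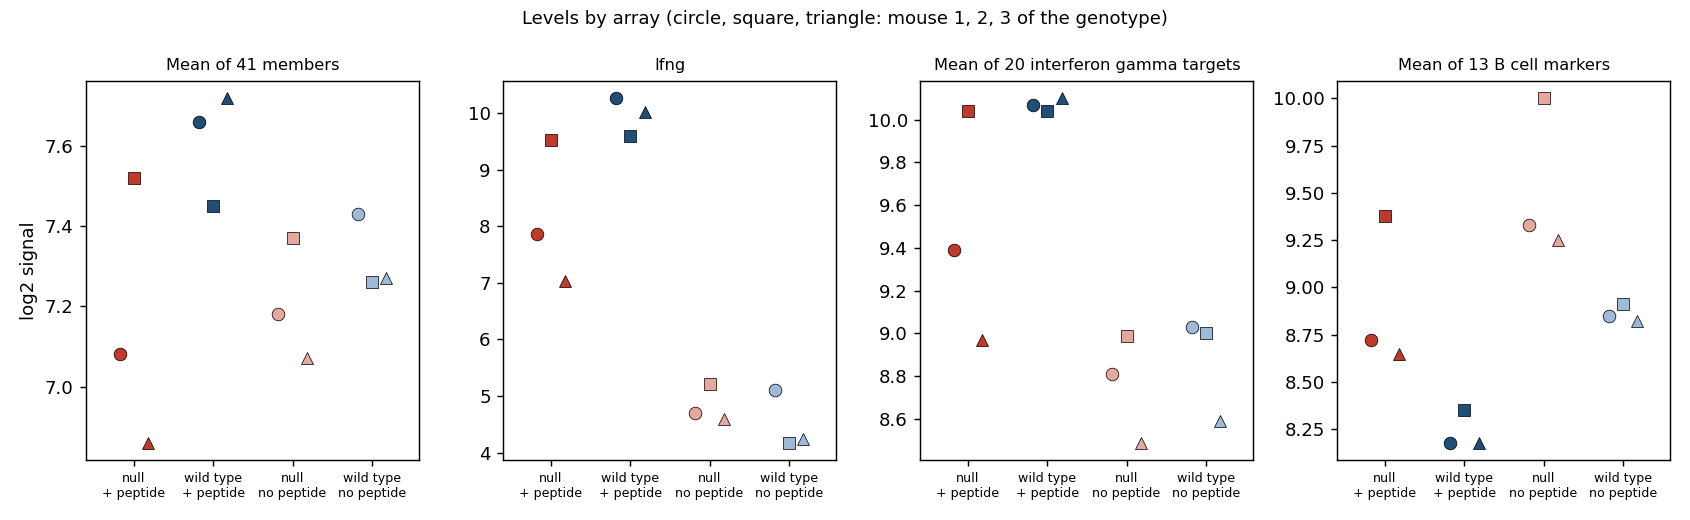
Mean log2 signal of the 41 members, Ifng, mean of 20 interferon gamma target genes and mean of 13 B cell markers on each array, by group, with a symbol for each mouse. The square of null mouse 2 stands highest of the stimulated null arrays in all 4 panels (7.52, 9.53, 10.04 and 9.38).

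Without peptide no member was called between null and wild-type cells: 0 of 41 passed in limma, against 0.011% of all genes higher and 0.033% lower, and the unadjusted p was under 0.05 in 5, against 10.6% of all genes. The median difference was -0.08 (0.01 over all genes). The largest was that of Rsad2, with 6.07, 6.50 and 5.77 in unstimulated null and 6.91, 7.68 and 6.77 in unstimulated wild-type cells. These values did not overlap, and the difference of -1.002 (SE 0.242) had an adjusted p of 0.203. Parp12 had 4.89, 5.35 and 5.19 in unstimulated null and 6.31, 5.55 and 6.11 in unstimulated wild-type cells (-0.85, adjusted p = 0.286). Xaf1 had 7.04, 7.37 and 7.41 in unstimulated null and 8.20, 7.98 and 8.06 in unstimulated wild-type cells (-0.80, adjusted p = 0.116). For Xaf1, Parp12 and Rsad2, and also for Isg20 and Dtx3l, all 3 null values were below all 3 wild-type values in both conditions. The share of all genes that did so was not computed.

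The second probe set of Xaf1 disagreed with the first. It read 6.75, 7.15 and 3.50 in stimulated null and 3.47, 3.69 and 3.73 in stimulated wild-type cells. Without peptide it read 6.99, 7.13 and 3.32 in null and 3.58, 3.60 and 3.62 in wild-type cells. Null mice 1 and 2 were thus more than 3 log2 units above null mouse 3 and all wild-type mice in both conditions. Averaging the 2 probe sets turned the Xaf1 difference to 0.36 with peptide (adjusted p = 0.75) and 0.70 without it, neither of which passed. The cause of the split between mice was not tested.

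Other members also held probe sets that differed. For Herc6 the probe set in use did not pass, whereas another fell by 1.18 in null cells (adjusted p = 0.00019) and was called lower in wild-type cells too. For Trim25 a second probe set fell by 0.72 in null cells (adjusted p = 4.28e-05) while another had 0.00 (adjusted p = 0.993). The higher level of Trim25 in stimulated null cells was 0.40 (adjusted p = 0.0504) on its second probe set, just short of the threshold. Trim30a had another probe set that fell by 0.57 in null cells (adjusted p = 0.00689). Dhx58 and Ifi35 each had another that rose in wild-type cells, by 0.39 (adjusted p = 0.0208) and 0.33 (adjusted p = 0.0448). Pml had another that rose by 0.62 in null cells (adjusted p = 0.0368). The Dhx58 and Pml ones had means of 3.91 and 3.93, under the highest array median.

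Upstream of the members, the genes of type I interferon itself passed in no comparison. Ifnb1 had 3.66, 4.05 and 3.88 in stimulated null and 4.11, 4.15 and 4.23 in stimulated wild-type cells, and 3.83, 3.91 and 3.88 in unstimulated null and 4.32, 3.93 and 4.27 in unstimulated wild-type cells. All were under the highest array median. The 7 interferon alpha or related genes did not pass either, whereas Ifng rose by 3.31 in null cells (adjusted p = 0.00019) and by 5.45 in wild-type cells (adjusted p = 2.1e-06). Its unstimulated wild-type mean (4.51) lay under the highest array median, so the size of the wild-type change is not exact. Plasmacytoid dendritic cells are the main makers of interferon alpha. Of their 11 measured markers, 1 rose (9.09%) and 2 fell (18.2%) in null cells, against 12.5% and 19% of all genes. In wild-type cells 1 rose (9.09%) and 3 fell (27.3%), against 15.1% and 20.4% of all genes. Pacsin1 rose and Tcf4 and Ly6d fell in both genotypes, and Spib fell in wild-type cells. Siglech, the marker most particular to these cells, read 4.99 to 5.57 on all arrays, and none of the 11 passed between genotypes.

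The receptor chain Ifnar1 and the kinases Jak1 and Tyk2 were lower with peptide in both genotypes. Ifnar1 had 8.59, 8.53 and 8.62 with peptide and 9.80, 9.50 and 9.58 without it in null cells, and 8.48, 8.46 and 8.45 with peptide and 9.81, 9.83 and 9.76 without it in wild-type cells, with no overlap between conditions. Ifnar1 fell by 1.05 in null cells and fell by 1.33 in wild-type cells. Jak1 fell by 0.99 in null cells and fell by 1.26 in wild-type cells, and Tyk2 fell by 0.43 in null cells and fell by 0.75 in wild-type cells. Ifnar2 passed in neither. Among the 11 measured genes of receptors and signal carriers, 3 rose (27.3%) and 6 fell (54.5%) in null cells, against 12.5% and 19% of all genes. In wild-type cells 4 rose (36.4%) and 6 fell (54.5%), against 15.1% and 20.4% of all genes. The rises included Irf1 (1.38 in null, 1.66 in wild-type cells) and Irf8 (1.93 in null, 3.15 in wild-type cells), both transcription factors that interferon gamma induces. A list of 11 genes held inhibitors of the pathway together with Uba7 and Ube2l6, enzymes that hand on Isg15, which passed in no comparison. Of the 11, 4 rose (36.4%) and 1 fell (9.09%) in each genotype, against the shares of all genes just given. Socs1, which blocks the receptor kinases, led the rises (2.05 in null, 2.63 in wild-type cells). None of these genes passed between genotypes.

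Of 17 genes that sense nucleic acid upstream of interferon, 2 rose and 2 fell in null cells (11.8% each), against 12.5% and 19% of all genes. In wild-type cells 2 rose (11.8%) and 3 fell (17.6%), against 15.1% and 20.4% of all genes. Cgas, the DNA sensor, rose by 1.06 in null and by 1.08 in wild-type cells, while Sting1, the protein it signals to, fell by 0.61 in null and by 0.70 in wild-type cells. Ikbke, a kinase that activates interferon regulatory factors, fell by 2.16 in null and fell by 2.09 in wild-type cells.

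A further 51 interferon-stimulated genes that are not members were measured. Of these, 4 rose (7.84%) and 16 fell (31.4%) in null cells, against 12.5% and 19% of all genes. In wild-type cells 7 rose (13.7%) and 13 fell (25.5%), against 15.1% and 20.4% of all genes. The higher share of rises seen among the members in wild-type cells was thus not seen in this wider list. Its medians were -0.28 in null and -0.20 in wild-type cells. Cxcl10, a chemokine that both kinds of interferon induce, rose by 3.86 in null and by 4.99 in wild-type cells. Slfn1, a growth regulator of T cells, fell in both genotypes and its null minus wild-type difference with peptide was -0.69 (adjusted p = 0.036), the sole call of the 51 there. Of 20 interferon gamma target genes, 9 rose (45%) and 2 fell (10%) in null cells, against 12.5% and 19% of all genes. In wild-type cells 10 rose (50%) and 2 fell (10%), against 15.1% and 20.4% of all genes. The medians were 0.68 in null and 1.17 in wild-type cells. Irgm1, a GTPase of cell-autonomous immunity, rose by 2.37 in null and by 3.16 in wild-type cells.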

How the data were processed

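Values were used as the authors deposited them: log2 signals of 45101 Affymetrix probe sets on 12 arrays, made with Affymetrix Expression Console 1.1 per the submitters' processing notes. Which algorithm normalized them was not given in the sources used here. Sorted values of any pair of arrays differed by at most 0.253, so nothing was normalized again. The 64 control probe sets were left out, and of 45037 others 34945 had 1 gene symbol. The 932 with several were not used as genes, and 0 symbols were updated through the reference table.

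One limma model (version 3.58.1, run in R 4.3.3) with a mean for each group took in all 12 arrays, through lmFit and eBayes, with 8 residual and 4.18 prior degrees of freedom. It tested 5 contrasts, namely stimulation in each genotype, null against wild type in each condition, and the difference of the stimulation effects. Calls used a two-sided p adjusted by Benjamini and Hochberg over 45037 probe sets, at 0.05. The small number of arrays limits the precision. The fit was also run on simulated data with independent noise on each array. Correlation between the arrays of a mouse was not simulated.

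The labels' description of each array names the animal, so the arrays with and without peptide of a mouse are paired. Deviations from the group means correlated at 0.116 to 0.577 within a mouse and at most 0.129 between mice. The mouse was a fixed block for stimulation and a random block between genotypes, as an alternative. Others were other probe set choices, scalings, filters, priors, samples in the fit, and leaving out each mouse. Values on every array are given for members called between genotypes, up to 10 of the largest rises and falls in wild-type stimulation, and the 6 largest differences of effects. Others are named by role. The members and gene lists were chosen with earlier results of these data known. Promoter sequences are RefSeq's, and motifs were searched with Python 3.11.15.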

Additional observations from a re-analysis of the deposited data

How the results depend on the processing

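The counts of called members kept within 1.5 times of the reported ones except as follows. With the mouse as a replicate block, members lower with peptide in wild-type cells numbered 8, and in null cells 5 were higher and 10 lower. Counts between genotypes did not change under the block. Members higher with peptide in null cells numbered 1 with arrays centred on their medians and 1 with the compared groups fitted alone. Between stimulated null and wild-type cells, the higher count was 0 with the mean over probe sets, with probe sets not ending in x_at or s_at, and with the compared groups alone, and the lower count was 1 with the compared groups alone. The causes were not tested.

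Directions were checked for members with values given on all 12 arrays and for members called in the comparison concerned. Ifng, Ifnar1, Jak1, Tyk2, Irf1 and Socs1 were checked too, and the remaining members were not. Among the values checked, directions turned in 9 cases without leaving out a mouse, all in values that did not pass under that setting. With the mean over probe sets these were Xaf1 between genotypes (0.36 with and 0.70 without peptide), Tyk2 between stimulated genotypes (-0.037), Zbp1 between unstimulated ones (0.079), and the differences of effects of Rigi (-0.051), Sp100 (0.0027) and Tyk2 (-0.0024). The others were Sp100 between stimulated genotypes on renewed quantile normalization (-0.0013) and the difference of effects of Rigi with array weights (-0.058). Of the called differences between genotypes, Xaf1 alone turned.

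Leaving out each mouse in turn gave, for stimulation in wild-type cells, 5 to 15 members higher, 5 to 7 lower and a median of 0.16 to 0.25. In null cells it gave 1 to 2 higher, 5 to 7 lower and a median of -0.09 to 0.06. Between stimulated null and wild-type cells it gave 0 to 1 higher, 1 to 12 lower and a median of -0.51 to -0.19. Between unstimulated cells it gave 0 higher, 0 lower and a median of -0.14 to -0.01, and for the difference of effects 0 higher, 0 lower and -0.33 to -0.15.

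Among the same checked genes, leaving out a mouse turned the direction in 17 values, none of which passed. The remaining members were not checked for this. Some of these also turned under a setting named above. They were Zbp1 between unstimulated genotypes, Sp100 between stimulated ones, and the differences of effects of Rigi and Sp100. The ranges for null stimulation were -0.16 to 0.18 for Oasl2, -0.15 to 0.29 for Parp12 and -0.09 to 0.63 for Pml. Between stimulated null and wild-type cells they were -0.25 to 0.026 for Rigi, -0.024 to 0.17 for Samd9l and -0.094 to 0.25 for Sp100. Between unstimulated ones they were -0.10 to 0.37 for Ifit1, -0.24 to 0.016 for Ifit2, -0.17 to 0.26 for Ifit3, -0.16 to 0.11 for Irf1, -0.078 to 0.088 for Parp9, -0.58 to 0.076 for Rtp4, -0.07 to 0.01 for Samd9l, -0.061 to 0.46 for Usp18 and -0.22 to 0.082 for Zbp1. For the difference of effects they were -0.068 to 0.15 for Rigi and -0.34 to 0.08 for Sp100.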
